A study of Mus musculus with 4 samples.

Results

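The genes described here are 10 transcripts of the oxygen-sensing pathway, chosen by name: the prolyl hydroxylases Egln1, Egln2 and Egln3, the asparaginyl hydroxylase Hif1an, the ubiquitin ligase subunit Vhl, and the hypoxia targets Bnip3, Bnip3l, Ankrd37, Ak4 and Vegfa. They are 10 of the 37583 features in each table, 28032 of which have an exon length, and all 10 passed the filter on low counts. The study asked how blocking the serine/threonine kinase CK2 alters transcription in T cells on their way to the Th17 fate. Naive CD4+ T cells sorted from spleens of C57BL/6 mice were stimulated for 24 h through CD3 and CD28 in the presence of IL-1β, IL-6 and IL-23, with IL-4 and IFN-γ neutralised by antibodies (labelled aTh17). The first experiment has an untreated library (the control for DMAT) and one that received 1.5 µM DMAT, and the second has an untreated library (the control for CX4945) and one that received 1 µM CX4945. Both compounds inhibit CK2. All 4 libraries share the strain, the sort, the stimulus and the time, and each group is 1 library. The labels do not say how many animals gave the cells, what vehicle the controls received or under which oxygen tension the cells were kept.

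In oxygenated cells, the EGLN enzymes (also called PHD) hydroxylate prolines of the HIF alpha subunits, and VHL, the substrate receptor of a ubiquitin ligase, binds the hydroxylated protein and marks it for the proteasome. The enzyme encoded by Hif1an (factor inhibiting HIF) hydroxylates an asparagine, which keeps HIF from its coactivators. When HIF escapes these enzymes it pairs with ARNT and activates genes of glycolysis, mitophagy and angiogenesis, and it also activates Egln1 and Egln3, which gives the pathway a feedback loop. In T cells HIF accumulates after stimulation in normal oxygen too, and it is known to favour Th17 over regulatory T cell differentiation.

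The 4 libraries held 2056635 to 2772525 exon reads, with 10 reads or more at 9331 to 9661 genes. The 5 T cell markers (Cd3e, Cd3g, Cd4, Lck and Cd5) summed to between 3691 and 4646 reads per library. Markers of B cells, myeloid cells, dendritic cells, NK cells and erythroid cells, 20 genes in all, summed to between 7 and 13 reads, with 12 of them at 0 in every library, Ms4a1, Lyz2 and Ncr1 among these. The CD8 markers Cd8a and Cd8b1 summed to 6 to 10 reads. In such bulk samples, fewer cells that express a gene and less RNA per cell cannot be told apart.

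HIF with ARNT binds DNA at a short core, ACGTG or GCGTG. The RefSeq promoter table (GRCm38.p6) has a window for 9 of the 10 genes, and the 250 bases before the most upstream start were searched for both cores on both strands. A match was present in 6 of the 9 windows and in 38.6% of the 27025 promoters of that length, 16.5% with ACGTG and 28.3% with GCGTG. These promoters were not matched for GC content, which ran from 50.8% (Egln3) to 86% (Egln1) in the 9 windows. Enrichment was therefore not tested. Ak4 has 4 listed starts, and Egln2 and Vegfa have 2 each, of which only the most upstream was searched. The windows of Hif1an, Vhl and Vegfa held neither core, and a window of this size says nothing of sites elsewhere. Shown are the 4 genes whose values were lowest beside their controls in at least 1 experiment: Egln3 (chr12:54203875-54204124, minus strand), Bnip3 (chr7:138909507-138909756, minus strand), Ankrd37 (chr8:45999851-46000100, minus strand) and Ak4 (chr4:101419039-101419288, plus strand). Each is written 5′ to 3′ on the gene's strand, with the matches in capitals (CACGT and CACGC are the cores on the opposite strand).
Egln3: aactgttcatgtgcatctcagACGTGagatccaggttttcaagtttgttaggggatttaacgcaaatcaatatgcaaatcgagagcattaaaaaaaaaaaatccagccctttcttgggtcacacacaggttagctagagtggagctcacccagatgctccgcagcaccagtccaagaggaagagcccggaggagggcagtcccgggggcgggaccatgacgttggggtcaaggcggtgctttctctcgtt
Bnip3: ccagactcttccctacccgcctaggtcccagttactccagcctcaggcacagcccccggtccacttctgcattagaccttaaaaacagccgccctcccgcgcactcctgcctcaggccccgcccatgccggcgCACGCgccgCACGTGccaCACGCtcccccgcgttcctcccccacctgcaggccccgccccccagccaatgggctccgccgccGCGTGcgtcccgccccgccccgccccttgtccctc
Ankrd37: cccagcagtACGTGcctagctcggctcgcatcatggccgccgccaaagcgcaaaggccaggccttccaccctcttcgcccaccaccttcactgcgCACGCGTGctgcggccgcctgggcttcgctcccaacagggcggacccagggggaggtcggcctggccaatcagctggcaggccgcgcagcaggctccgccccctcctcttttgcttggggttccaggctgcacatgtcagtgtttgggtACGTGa
Ak4: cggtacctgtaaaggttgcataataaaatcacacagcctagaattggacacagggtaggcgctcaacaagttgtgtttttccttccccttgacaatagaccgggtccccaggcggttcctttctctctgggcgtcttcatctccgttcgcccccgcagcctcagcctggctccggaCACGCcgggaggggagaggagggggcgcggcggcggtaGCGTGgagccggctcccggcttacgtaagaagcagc
Bnip3 held 5 matches, of which an ACGTG on each strand overlap in the palindrome CACGTG, 108 to 103 bases before the start. Ankrd37 held 4, with 1 of its ACGTG cores at the end of the window, 6 to 2 bases before the start, and with a GCGTG on each strand that overlap. In the GENCODE annotation 17 bases of the Ankrd37 window and 12 of the Ak4 window are untranslated region of the gene itself, so part of these windows may be transcribed. Ak4 held 2 GCGTG cores, and Egln3 held 1 ACGTG, 229 to 225 bases before the start. Of the genes not shown, Egln2 held 4 matches (1 ACGTG and 3 GCGTG) and Egln1 held 2 (1 of each), so matches were not limited to the genes shown. These are matches of letters, and no binding was measured.

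The prolyl hydroxylase transcripts Egln3 and Egln1 were the most abundant of the 10 in each library. Levels between genes are given as RPKM (exon reads divided by the deposited exon length and the scaled library size, on the usual RPKM scale), which depends on the annotated exon length. Egln3 ranged from 24.4 to 46.8 RPKM over the 4 libraries and Egln1 from 23.7 to 31.0 RPKM. Egln3 stood first in both controls and second, below Egln1, with DMAT. With CX4945 they stood at 28.2 and 27.9 RPKM, a difference within counting error. Bnip3l (11.1 to 20.7 RPKM) and Egln2 (11.8 to 15.7) came next, with overlapping ranges, except that with DMAT Hif1an (13.0) stood above Egln2 (11.8). The ranges of Hif1an (9.66 to 13.0), Vhl (9.34 to 10.9) and Ak4 (4.05 to 10.9) overlap as well. The lowest 3 were Bnip3 (0.862 to 9.59 RPKM), Ankrd37 (3.48 to 9.03) and Vegfa (2.39 to 6.83). Vhl varied least between libraries, 1.17-fold from lowest to highest, and Bnip3 most, 11.1-fold.

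**Figure D1:**
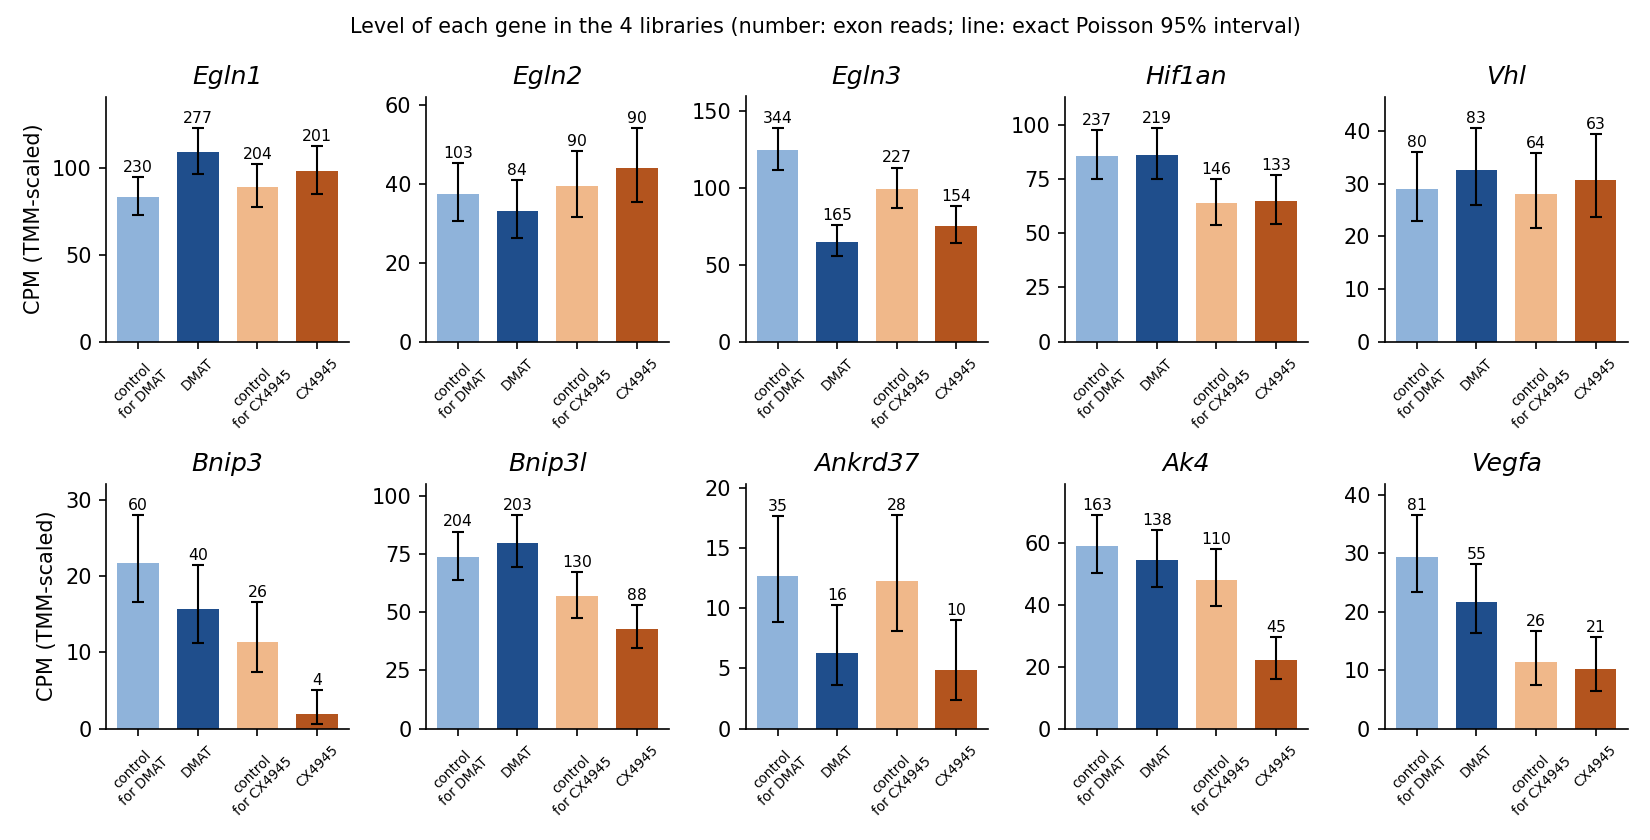
Level of each of the 10 genes in the 4 libraries, in CPM (exon reads relative to library size after TMM scaling, linear axes from 0). Bars are 1 library each, lines are exact Poisson 95% intervals for counting error and the numbers are exon reads. Egln3 and Ankrd37 are lower in both inhibitor libraries than in both controls, as are 15.5% of all genes tested. Bnip3, Bnip3l, Ankrd37, Ak4 and Vegfa are lowest with CX4945.

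Egln3, the prolyl hydroxylase PHD3 gene, which hypoxia strongly induces in many cells, is on chromosome 12 in mm9 (55279968 to 55304847), with 1 annotated transcript of 5 exons. It had 344 reads in the control for DMAT, 165 with DMAT, 227 in the control for CX4945 and 154 with CX4945, or 125, 64.9, 99.2 and 75.2 CPM. Both inhibitor libraries lay below both controls, as they did for 15.5% of all genes tested. Within the experiments, the fold by which Egln3 was lower was 1.92 with DMAT (95% counting interval 1.59 to 2.32) and 1.32 with CX4945 (1.07 to 1.63). The controls themselves differed, with 1.26-fold less in that for CX4945 (1.06 to 1.49). In the fit of both experiments together, with the experiment as a block, Egln3 fell by 0.68 on the log2 scale (SE 0.15, edgeR quasi-likelihood, BH adjusted p = 0.0288). That call was lost without the block (adjusted p = 0.999) and with DESeq2 (1.00). It was also lost in each fit that left out a library, with log2 fold changes from -0.824 to -0.506. Those fits had no block either, so they do not show the part of any single library. Every Egln3 exon read was unique. Reads across its exon junctions numbered 31 and 7 in the DMAT experiment (ratio 0.245, 0.0912 to 0.568) and 23 and 19 in the CX4945 experiment (0.923, 0.475 to 1.77).

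Egln1 (PHD2), the main HIF prolyl hydroxylase of most cells, did not share this direction. It had 230 reads in the control for DMAT, 277 with DMAT, 204 in the control for CX4945 and 201 with CX4945, or 83.3, 109, 89.2 and 98.1 CPM. Both inhibitor libraries were above both controls, as they were for 14.2% of all genes tested. The ratio was 1.31 with DMAT (1.09 to 1.57) and 1.10 with CX4945 (0.901 to 1.34), and Egln1 did not pass the joint test (log2 0.27, SE 0.13, edgeR quasi-likelihood, BH adjusted p = 0.688). Egln2 (PHD1), which is known to be little affected by hypoxia, had 103, 84, 90 and 90 reads in the same order, 37.3, 33.1, 39.3 and 43.9 CPM. Its ratios lay on either side of 1, at 0.886 with DMAT (0.656 to 1.19) and 1.12 with CX4945 (0.824 to 1.51), and its joint log2 fold change was -0.003 (SE 0.19, adjusted p = 0.998).

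The balance among the prolyl hydroxylase transcripts can be read within each library, without scaling between libraries. Egln3 made up 55.8% of the reads per kilobase of the 3 genes in the control for DMAT and 36.3% with DMAT, and 48.6% in the control for CX4945 and 39.3% with CX4945. Egln3 over Egln1 per kilobase was 1.97 (1.67 to 2.34) in the control for DMAT and 0.787 (0.645 to 0.957) with DMAT, intervals that do not overlap. In the second experiment it was 1.47 (1.21 to 1.78) in the control and 1.01 (0.815 to 1.25) with CX4945, and these intervals overlap. Egln3 over Egln2 went from 3.51 (2.81 to 4.42) to 2.07 (1.58 to 2.72) with DMAT and from 2.65 (2.07 to 3.43) to 1.80 (1.38 to 2.36) with CX4945.

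**Figure D2:**
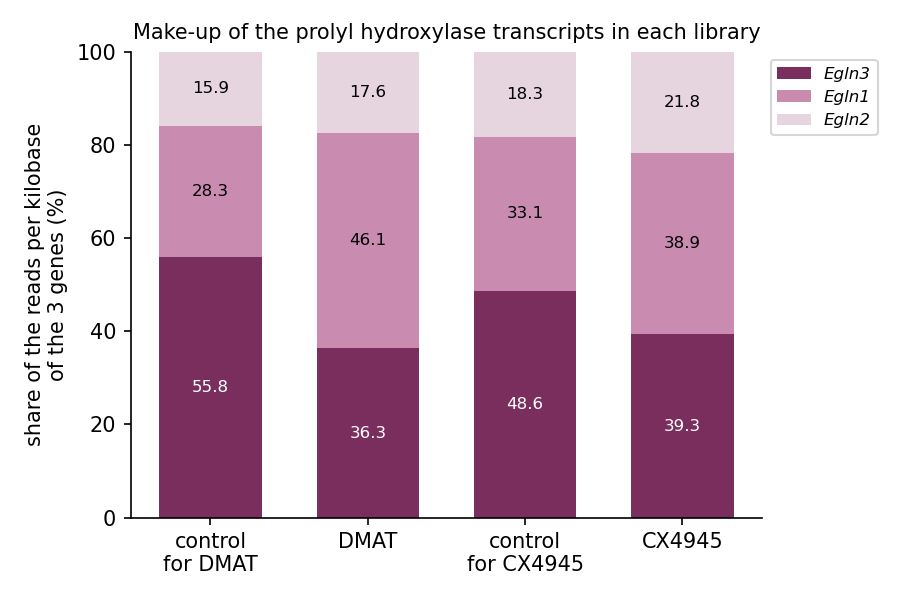
Share of Egln3, Egln1 and Egln2 in the summed reads per kilobase of the 3 genes, in percent, in each of the 4 libraries. Egln3 is the largest share in both controls, at 55.8% and 48.6%, and 36.3% and 39.3% with DMAT and CX4945.

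Hif1an and Vhl, whose products also restrain HIF, showed no difference from their controls beyond counting error. Hif1an had 237 reads in the control for DMAT, 219 with DMAT, 146 in the control for CX4945 and 133 with CX4945, or 85.8, 86.2, 63.8 and 64.9 CPM. Its libraries separated by experiment and not by inhibitor: the ratio was 1.00 with DMAT (0.832 to 1.21) and 1.02 with CX4945 (0.798 to 1.30), against 0.744 between the controls (0.601 to 0.918). Vhl had 80, 83, 64 and 63 reads, or 29.0, 32.7, 28.0 and 30.8 CPM. Its ratios were 1.13 with DMAT (0.819 to 1.55) and 1.10 with CX4945 (0.764 to 1.58), so a difference inside these bounds was not detectable at this depth. Neither passed the joint test (edgeR quasi-likelihood, BH adjusted p = 0.992 for Hif1an and 0.95 for Vhl).

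Among the hypoxia targets, Bnip3, Ankrd37 and Ak4 were each more than 2-fold lower with CX4945 than in its control. Of all genes with enough reads, 0.930% were at least 2-fold lower there. The counting intervals of Ankrd37 and Ak4 reached below 2-fold (from 1.18 and 1.53). Bnip3 encodes a BH3-only protein of the outer mitochondrial membrane that recruits the autophagy machinery (mm9 chromosome 7, 146082519 to 146101202). It had 60 reads in the control for DMAT, 40 with DMAT, 26 in the control for CX4945 and 4 with CX4945, or 21.7, 15.7, 11.4 and 1.95 CPM. The CX4945 library stood lowest, and the control for CX4945 was below the DMAT library, so the groups overlap. Bnip3 was 5.82-fold lower with CX4945 (2.02 to 22.9) and, in the other experiment, 1.38-fold (0.910 to 2.11). The control for CX4945 was itself 1.91-fold below that for DMAT (1.19 to 3.16). Of its reads 77.7% were unique, and unique reads alone gave 48, 30, 20 and 3. In the joint test it did not pass (log2 -0.97, SE 0.38, edgeR quasi-likelihood, BH adjusted p = 0.498).

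Ankrd37, a small ankyrin repeat protein gene and HIF target (mm9 chromosome 8, 47082256 to 47085221), was low in both inhibitor libraries. It had 35 reads in the control for DMAT, 16 with DMAT, 28 in the control for CX4945 and 10 with CX4945, or 12.7, 6.30, 12.2 and 4.88 CPM. The controls were alike (ratio 0.966, 0.566 to 1.63). Below both of them lay both inhibitor libraries, a position shared by 15.5% of all genes tested. The fold by which Ankrd37 was lower was 2.01 with DMAT (1.09 to 3.90) and 2.51 with CX4945 (1.18 to 5.79). With 89 reads in all, it did not pass the joint test (log2 -1.13, SE 0.39, edgeR quasi-likelihood, BH adjusted p = 0.357), and the adjusted p was 0.0927 with unique reads.

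Ak4, the mitochondrial matrix adenylate kinase (mm9 chromosome 4, 101091882 to 101140376), was lowest in the CX4945 library. It had 163 reads in the control for DMAT, 138 with DMAT, 110 in the control for CX4945 and 45 with CX4945, or 59.0, 54.3, 48.1 and 22.0 CPM. The first 3 libraries lay close together. Ak4 was 2.19-fold lower with CX4945 (1.53 to 3.17), against 1.09-fold in the DMAT experiment (0.861 to 1.37). It did not pass the joint test (log2 -0.51, SE 0.20, edgeR quasi-likelihood, BH adjusted p = 0.505), a fit that averages the 2 experiments. Without the DMAT library and the block, where the lone inhibitor library is assumed to vary like the controls, Ak4 and Bnip3 passed (log2 -1.28 and -3.06, edgeR quasi-likelihood, BH adjusted p = 0.00839 and 0.0150). Without the CX4945 library and the block they were at 0.0072 and -0.100 (adjusted p = 0.999 and 0.992), and without the control for DMAT at -0.317 and -0.313 (1.00 for both).

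Bnip3l and Vegfa differed between the controls by about as much as, or more than, within either experiment. Bnip3l, the mitophagy receptor related to Bnip3 (also called NIX), had 204 reads in the control for DMAT, 203 with DMAT, 130 in the control for CX4945 and 88 with CX4945, or 73.9, 79.9, 56.8 and 43.0 CPM, with 68.8% of reads unique. Its ratio was 1.08 with DMAT (0.886 to 1.32) and 0.756 with CX4945 (0.570 to 0.998), beside 0.769 between the controls (0.613 to 0.963). Vegfa, the angiogenic growth factor gene, had 81, 55, 26 and 21 reads, or 29.3, 21.6, 11.4 and 10.3 CPM. Both libraries of the second experiment were below both of the first. The ratio was 0.738 with DMAT (0.514 to 1.05) and 0.902 with CX4945 (0.483 to 1.67), but 0.388 between the controls (0.239 to 0.609). Neither passed the joint test (edgeR quasi-likelihood, BH adjusted p = 0.954 for Bnip3l and 0.896 for Vegfa). Vegfa reads outside exons numbered 29, 11, 7 and 0.

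**Figure D3:**
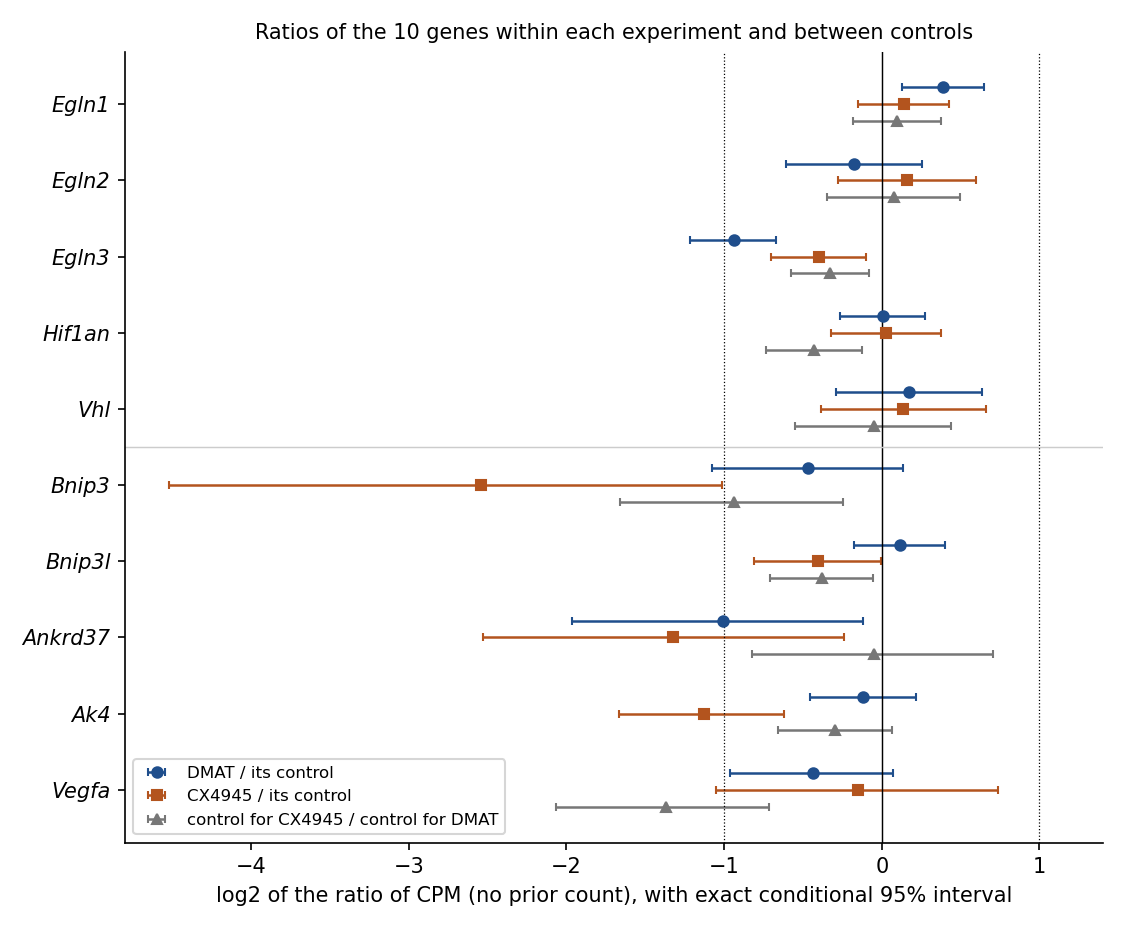
Log2 ratio of CPM for each gene in the DMAT experiment, the CX4945 experiment and between the control libraries, with exact conditional 95% intervals (counting error only, no prior count). The dotted line marks 2-fold lower. Bnip3 and Ak4 lie past it with CX4945, Ankrd37 with both inhibitors, and Vegfa between the controls.

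Counted over the 10 genes, 1 passed the joint test, Egln3, where 0.561% of all 9629 genes tested did, 0.384% falling and 0.177% rising. Of the 10, 4 had an unadjusted p below 0.05, as did 7.23% of all genes tested. Their median joint log2 fold change was -0.21, and that of all genes tested 0.005. Fold calls used the log2 ratio with a prior count of 2 and at least 20 reads in the pair, which places Ankrd37 with DMAT (log2 -0.92) just short of 2-fold. By that rule 0 of the 10 were at least 2-fold lower with DMAT (1.32% of all genes) and 3 with CX4945 (0.930%), and 0 of the 10 were 2-fold higher with either (1.06% and 0.855%). Between the controls 1 was at least 2-fold lower in that for CX4945, Vegfa (1.33%), and 0 higher (0.962%). Of the 3 lower with CX4945, Bnip3 and Ankrd37 rest on 30 and 38 reads in the pair, and 1 remained with at least 50 reads. Counting intervals lay wholly below 1 for 2 genes with DMAT (9.89% of all genes), for 5 with CX4945 (7.75%) and for 5 between the controls (9.77%). They lay wholly above 1 for Egln1 with DMAT (9.00%), and for 0 genes with CX4945 (7.06%) or between the controls (8.87%). Both inhibitor libraries lay below both controls for 2 genes, Egln3 and Ankrd37 (15.5% of all genes), and above them for 2, Egln1 and Vhl (14.2%). The 10 genes were chosen with earlier results of these data known, so these counts describe them and are not independent evidence.

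Summed over each role, the values were as follows. The 5 hydroxylase and Vhl transcripts together stood at 360 CPM in the control for DMAT and 326 CPM with DMAT, and at 320 and 313 CPM in the CX4945 experiment (ratios 0.905, 0.824 to 0.994, and 0.979, 0.879 to 1.09). Of these 5, 2 had a log2 ratio below 0 with DMAT (Egln3 and Egln2) and 1 with CX4945 (Egln3). With DMAT, Egln3 went from 125 to 64.9 CPM and Egln1 from 83.3 to 109 CPM, so the sum does not describe each gene. The 5 hypoxia targets together stood at 197 and 178 CPM in the DMAT experiment (ratio 0.904, 0.797 to 1.03) and at 139.9 and 82.0 CPM in the CX4945 experiment (0.586, 0.484 to 0.709). The targets were also lower in the control for CX4945 than in the control for DMAT (0.711, 0.618 to 0.818), and depth was lowest in the CX4945 library. The part of the experiment or of depth in these ratios was not tested. The inhibitors differ in dose, experiment and compound, so their ratios are set side by side without a comparison.

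Among the HIF subunits, Hif1a stood on opposite sides of its controls in the experiments. Hif1a, the oxygen-regulated subunit, had 1312 reads in the control for DMAT, 1356 with DMAT, 886 in the control for CX4945 and 635 with CX4945, or 475, 534, 387 and 310 CPM. It was higher with DMAT (ratio 1.12, 1.04 to 1.21) and lower with CX4945 (0.800, 0.722 to 0.887). Arnt, its partner, had 142, 119, 126 and 101 reads, with ratios of 0.911 (0.708 to 1.17) and 0.895 (0.682 to 1.17). Epas1, which encodes HIF-2 alpha, had 1 read in every library. Of 8 listed HIF subunits and coactivators 5 entered the joint test, as did all 4 partners of VHL in its ligase (Cul2, Tceb1, Tceb2 and Rbx1). Of these 9, 0 passed (edgeR quasi-likelihood, BH adjusted p from 0.777 to 0.997, 0 with an unadjusted p below 0.05, and 0 with DESeq2). Over all genes tested 0.561% passed.

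Of 18 listed HIF targets in glucose uptake and glycolysis, 2 fell in the joint test (0.384% of all genes tested), 0 rose (0.177%) and 16 did not pass. Of the 18, 7 had an unadjusted p below 0.05 (edgeR quasi-likelihood), as did 7.23% of all genes tested. The list was chosen with earlier results of these data known, so these counts describe it and are not independent evidence. Hk2, the hexokinase that phosphorylates glucose on entry, had 652, 455, 586 and 325 reads. It was below both controls in each inhibitor library, as were 15.5% of all genes tested. Hk2 fell by 0.53 on the log2 scale (SE 0.10, edgeR quasi-likelihood, BH adjusted p = 0.0146). Tpi1, triosephosphate isomerase, had 2197, 1687, 1319 and 784 reads and fell by 0.41 (SE 0.09, adjusted p = 0.0363), while the control for CX4945 was 1.38-fold below that for DMAT (1.29 to 1.48). Without the block the log2 fold changes of Hk2 and Tpi1 were -0.536 and -0.384 (adjusted p = 0.999 for both), and with DESeq2 -0.535 and -0.414 (1.00 for both), so both calls were lost at folds about as large. In fits that left out 1 library each, with no block, Hk2 ranged from -0.619 to -0.465 and lost its call in all 4 (adjusted p from 0.0587 to 1.00). Tpi1 lost its call in 3 of the 4, at -0.141 without the control for DMAT, -0.596 without the control for CX4945 and -0.0557 without the CX4945 library (adjusted p from 0.983 to 1.00), and kept it without the DMAT library, at -0.83 (0.00552).

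The glucose transporter Slc2a1 had 338, 265, 249 and 208 reads and did not pass (log2 -0.16, BH adjusted p = 0.879), nor did Pdk1, the kinase that restrains pyruvate dehydrogenase, with 275, 281, 228 and 169 reads (-0.04, 0.982). Slc16a3, the lactate exporter MCT4, had 128, 102, 48 and 18 reads, 2.39-fold lower with CX4945 (1.36 to 4.36) and 2.21-fold lower in the control for CX4945 than in that for DMAT (1.57 to 3.15). It was the single listed HIF pathway gene outside the 10, of 40 with enough reads, that reached 2-fold in either experiment. Over all genes, 0.930% were at least 2-fold lower and 0.855% higher with CX4945, and 1.32% and 1.06% with DMAT. Medians over the 18 genes were -0.12 with DMAT, -0.26 with CX4945 and -0.06 between the controls, against 0.00 with DMAT, -0.004 with CX4945 and -0.008 between the controls over all genes.

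Of 18 further HIF targets, among them Ddit4, P4ha1, Ero1l and Bhlhe40, 13 entered the joint test, which 0.561% of all genes tested passed. Of the 13, 0 passed (edgeR quasi-likelihood, 0 with an unadjusted p below 0.05, and 0 with DESeq2). Their medians were -0.04 with DMAT, -0.10 with CX4945 and -0.23 between the controls. Fam162a, a mitochondrial protein gene, had 288, 381, 168 and 143 reads and was higher with DMAT (ratio 1.44, 1.23 to 1.68), named after its values were seen. Over all 40 pathway genes outside the 10 that entered both experiments, counting intervals lay below 1 for 10 with DMAT (9.89% of all genes), 16 with CX4945 (7.75%) and 12 between the controls (9.77%). They lay above 1 for 5 with DMAT (9.00%), 0 with CX4945 (7.06%) and 1 between the controls (8.87%).

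**Figure D4:**
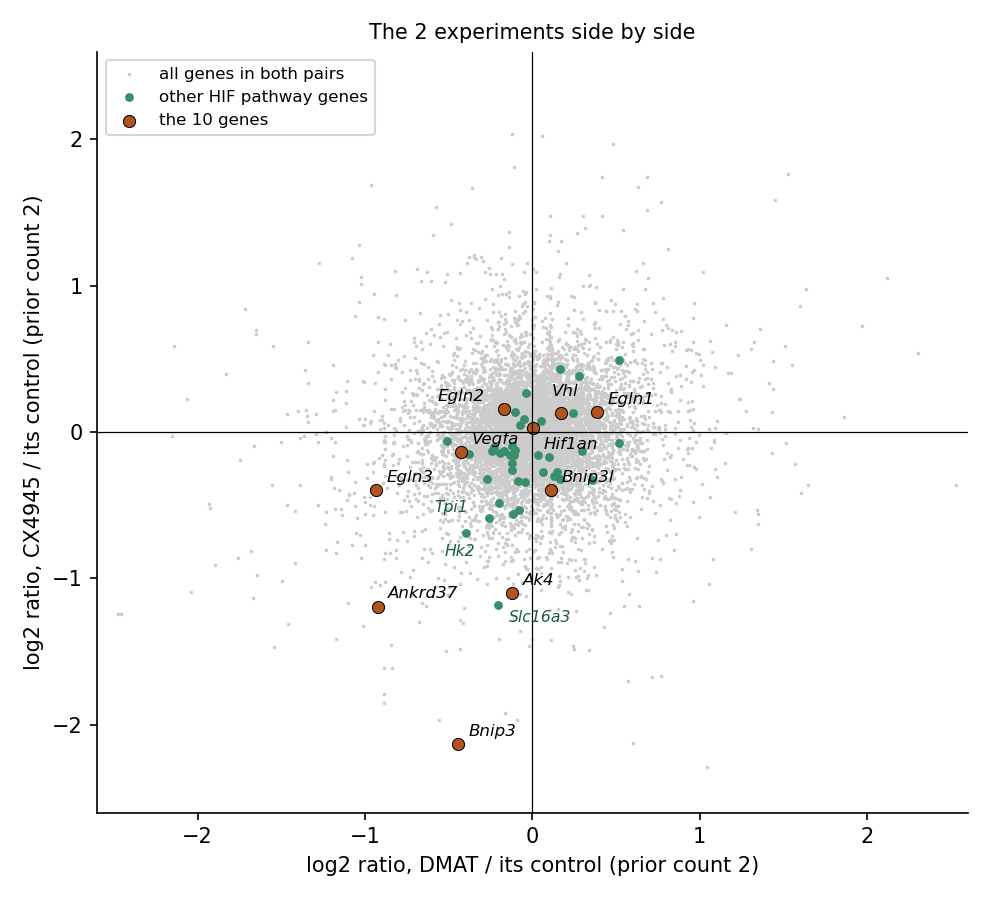
Log2 ratio with DMAT (horizontal) against log2 ratio with CX4945 (vertical), each over its own control with a prior count of 2, for 9262 genes in both pairs (7 lie outside the axes). The 10 genes and the listed pathway genes are coloured, and Ankrd37 and Egln3 lie to the left with Bnip3 lowest.

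The 3 genes with at least 200 reads whose ratios lay nearest those of Egln3 were Klf6, Haus3 and Plk1, out of 6967. Likeness was the Euclidean distance over 3 log2 ratios (DMAT, CX4945 and control against control), which rest on 4 libraries. Klf6 had -0.97, -0.44 and -0.33 (distance 0.06), Haus3 -0.99, -0.31 and -0.45 (0.16) and Plk1 -0.79, -0.30 and -0.24 (0.19), against -0.93, -0.40 and -0.33 for Egln3. The counting intervals of these Egln3 ratios were -1.22 to -0.67, -0.71 to -0.10 and -0.58 to -0.08. They are wider than the distances, so the order is not resolved beyond counting error.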

How the data were processed

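RNA was total RNA, with TruSeq libraries, per the labels' protocols. The deposited values are counts of reads per feature made by the authors, 1 library per table, with no normalization. Build mm9 and CASAVA 1.8.2 are named in the submitters' processing notes. The aligner, annotation, counting rule and strand are not given in the sources used here. Total exon reads were used, which include reads that fit several places. Features without exon length held no exon reads.

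Counts were scaled by TMM (edgeR 4.0.16, R 4.3.3; factors 0.99 to 1.009). Ratios within a pair have 1 library per arm and no p-value. Their intervals are exact conditional (Clopper-Pearson) 95% intervals and, like the Poisson intervals, cover counting error only. The joint fit was edgeR's quasi-likelihood test on the counts of 9629 genes (filterByExpr), with the experiment named in the titles as a block and Benjamini-Hochberg (BH) adjustment over all of them. It leaves 1 residual degree of freedom per gene, so most of the spread is shared across genes (19.7 prior degrees of freedom), and the labels name no separate cultures or animals, so a p-value covers only the spread among 4 libraries, in part perhaps technical. SE is the absolute log2 fold change over the square root of F. Between the experiments, the control difference and the inhibitor difference correlated across 6969 genes (r = 0.425, genes are not independent replicates). No duplicate library was found (chi-square per degree of freedom of 2.56 or more). Scripts were tested on simulated data.

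Genes named by rule were the 10, the listed pathway genes that passed the joint test or reached 2-fold, Hif1a, Arnt, Slc2a1 and Pdk1, and the 3 nearest to Egln3. Other genes named from the lists, such as Epas1, Fam162a, Gabarapl1, Becn1, Sqstm1, Ak3 and Vegfb, fall outside this rule. The members and lists were chosen with earlier results of these data known. Alternatives were the fit without the block, DESeq2 (1.42.0) and its size factors, total-count scaling, unique reads, other filters, a prior count of 0.5, the other experiment's control and leaving out each library.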

Additional observations from a re-analysis of the deposited data

Results flagged for a closer look

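Hif1a moved in opposite directions in the experiments, at a log2 ratio of 0.17 in the DMAT experiment and -0.32 in the CX4945 experiment, each with a counting interval that leaves out 0. Each direction is 1 library against 1, and the difference between them was not tested. Among the listed HIF targets, Pfkfb3 (ratios 1.28 and 0.793) and Mif (1.07 and 0.890) also had intervals above 1 with DMAT and below 1 with CX4945. Over all genes, intervals lay above 1 with DMAT for 9.00% and below 1 with CX4945 for 7.75%. The control for CX4945 itself stood at a log2 ratio of -0.29 to that for DMAT.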

How the results depend on the processing

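The count of genes in the joint test depends on the fit. It was 54, and 1 with no replicate block, 3 with DESeq2 and the experiment term, 84 with DESeq2 size factors, 112 when scaled by total count and 108 on unique reads. Leaving out 1 library each in fits without the block gave 1 to 73. At least 2-fold were 229 genes with DMAT and 167 with CX4945. These became 772 and 1080 with at least 1 read in the pair and 95 and 65 with at least 50, and with CX4945 366 against the other experiment's control and 108 with unique reads. Of the 10 genes, 1 was 2-fold lower with DMAT with unique reads (Ankrd37), in place of 0, and 1 with CX4945 with at least 50 reads, in place of 3.

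Some joint log2 fold changes of genes that did not pass changed sign. That of Egln2 became 0.0061 with no replicate block and 0.00044 with DESeq2. When 1 library at a time was left out, with no block, Egln2 ranged from -0.218 to 0.212, Hif1an from -0.199 to 0.246, Bnip3l from -0.598 to 0.276, Bnip3 from -3.06 to -0.100, Ak4 from -1.28 to 0.0072, Vegfa from -1.0002 to 0.503, Hif1a from -0.464 to 0.299 and Pdk1 from -0.259 to 0.144. Bnip3 kept its sign in each. The highest value came without the CX4945 library for Bnip3, Bnip3l, Ak4, Hif1a and Pdk1 and without the control for DMAT for Hif1an and Vegfa. These fits hold fewer libraries, and the cause was not tested further. Against the other experiment's control, Egln3 kept its sign with both inhibitors (log2 -0.606 and -0.722), while Bnip3, Ak4 and Vegfa with DMAT were at 0.44, 0.17 and 0.88.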

Other observations

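Genes that work beside Bnip3 in mitophagy were measured too. Of 8 mitophagy partners of Bnip3 found in the tables, 0 passed the joint test (edgeR quasi-likelihood, 0 with an unadjusted p below 0.05, and 0 with DESeq2), which 0.561% of all genes tested passed. The median log2 ratio of the partners was -0.15 with DMAT (8 genes) and 0.16 with CX4945 (7 genes with enough reads). Becn1, an autophagy initiator, had 374 reads in the control for DMAT, 387 with DMAT, 344 in the control for CX4945 and 352 with CX4945, and Sqstm1, the cargo receptor p62, had 180, 134, 183 and 183. A counting interval left out 1 for 1 of the partners, Gabarapl1 with DMAT (106 and 67 reads, ratio 0.687, 0.498 to 0.941). Such intervals lay below 1 with DMAT for 9.89% of all genes.

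Ak3, another adenylate kinase of the mitochondrial matrix, was measured beside Ak4. It had 55, 55, 60 and 33 reads, with ratios of 1.09 with DMAT (0.734 to 1.61) and 0.614 with CX4945 (0.389 to 0.955). The VEGF receptor genes Flt1 and Flt4 were listed at 0 reads in all 4 libraries and Kdr had 1 read in all, so beside Vegfa itself Vegfb, with 33, 38, 24 and 15 reads, was the one family member with more than 20 reads in both experiments.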
